A study of Mus musculus with 8 samples.

Results

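The cytochrome P450 family was examined in the livers of mice lacking Brap in the liver. The members were the protein-coding genes whose symbol is Cyp followed by a number, a letter or letters and a number, without Cyp7a1, Cyp7b1, Cyp8b1 and Cyp27a1 of bile acid synthesis. This gave 75 genes in 29 subfamilies, of 24451 genes in the table. A further 4 protein-coding P450 genes (Cyp4a12a, Cyp4a12b, Cyp51 and Cyp3a41b) did not match the symbol pattern, and 16 pseudogenes were left out. Of the 75 members, 66 averaged at least 5 normalized counts per liver and were tested. The other 9 were Cyp2ab1, Cyp2b23, Cyp2c65, Cyp2d34, Cyp3a57, Cyp4f40, Cyp11a1, Cyp26c1 and Cyp27b1, none of which had more than 7 reads in any liver.

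P450 enzymes are heme proteins of the endoplasmic reticulum and mitochondria that insert an oxygen atom into their substrates, with electrons from P450 oxidoreductase, cytochrome b5 or ferredoxin. In the liver the Cyp1, Cyp2 and Cyp3 enzymes oxidize drugs, toxicants, steroids and arachidonic acid, and the Cyp4 enzymes hydroxylate fatty acids and eicosanoids. Many of the genes are switched on by ligand-activated factors: the aryl hydrocarbon receptor (AhR) for Cyp1, the constitutive androstane receptor (CAR) for Cyp2b and Cyp2c, the pregnane X receptor (PXR) for Cyp3a and PPARA for Cyp4a. In mice many differ between the sexes under growth hormone, and many are restricted to hepatocytes around the central vein.

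Bulk RNA of the left liver lobe was sequenced from 4 Brap LKO and 4 Brap F/F mice, all male C57BL/6 animals of 18 wk that had been fasted for 6 h. Both groups carried floxed exons 2 and 3 of Brap on both alleles (Brap fl/fl). The Brap LKO mice also carried Alb-Cre, which the albumin promoter drives in hepatocytes. Whether other liver cells kept the gene was not measured. The Brap F/F mice, labelled wild type, had no Cre, so deletion and Cre itself cannot be told apart. The values were reads counted per gene and divided by a size factor for each liver (normalized counts), from 26280884 to 33313914 reads per liver. In bulk tissue, fewer cells of a type and less RNA per cell cannot be told apart.

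Some livers stood apart within a group. On the first principal component of all tested genes, which held 37.2% of the variance, Brap F/F 2 and 3 were at 49.7 and 48.4 and the other 6 livers between -41.4 and 0.61. On the second, with 22.0% of the variance, Brap F/F 1 and 4 were at -42.6 and -36.0 and all others were above 0. Values without Brap F/F 2 and 3 are given beside the main results. The animal numbers fell into a lower and a higher series, unevenly over the groups. Brap F/F 1 and all Brap LKO livers but Brap LKO 4 were in the lower series. Brap LKO 4 and Brap F/F 2, 3 and 4 were in the higher series. Series and genotype were thus partly confounded, and the main comparison did not adjust for series. Brap itself was at 3988 ± 242 normalized counts in the Brap LKO and 4186 ± 179 in the Brap F/F mice (SD, n = 4 each), with overlapping groups and a log2 fold change of -0.07 (limma, Benjamini-Hochberg adjusted p = 0.631). The counts cover the whole gene and not only the deleted exons, so they do not check the genotype labels. The hepatocyte markers (Alb, Apoa1, Ttr, Hnf4a, Tat, Serpina1a, Fga and Apob) were abundant in every liver, summing to 2414170 to 3070400 normalized counts in the Brap LKO and 2845120 to 4011890 in the Brap F/F mice. Of these markers 5 had negative and 3 positive fold changes, with a median log2 fold change of -0.12 (-0.22 without Brap F/F 2 and 3). By limma 0 were called, beside 0.769% of all tested genes.

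The 250 bases upstream of 5 Cyp2c genes are shown because neighbours of closely similar sequence had fold changes of opposite sign. They come from RefSeq (GRCm38.p6) and read 5′ to 3′ towards the start site, for Cyp2c29 (chr19:39286835-39287084, plus strand), Cyp2c37 (chr19:39992174-39992423, plus), Cyp2c68 (chr19:39741102-39741351, minus), Cyp2c40 (chr19:39812815-39813064, minus) and Cyp2c69 (chr19:39886770-39887019, minus). RefSeq start sites can differ from those of the gene annotation used for positions. Capitals mark CAAAGTC, the core of a site type that the hepatocyte factor HNF4A can bind, chosen after these sequences had been seen.
Cyp2c29: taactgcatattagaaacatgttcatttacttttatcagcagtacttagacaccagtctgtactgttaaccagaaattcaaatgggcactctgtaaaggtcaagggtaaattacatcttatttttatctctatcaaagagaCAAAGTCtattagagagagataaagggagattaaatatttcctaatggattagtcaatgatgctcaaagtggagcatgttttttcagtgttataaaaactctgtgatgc
Cyp2c37: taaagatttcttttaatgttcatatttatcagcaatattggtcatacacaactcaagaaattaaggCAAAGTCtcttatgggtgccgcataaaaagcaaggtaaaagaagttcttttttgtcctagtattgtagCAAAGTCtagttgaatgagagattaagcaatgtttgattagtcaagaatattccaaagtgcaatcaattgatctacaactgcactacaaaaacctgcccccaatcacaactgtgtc
Cyp2c68: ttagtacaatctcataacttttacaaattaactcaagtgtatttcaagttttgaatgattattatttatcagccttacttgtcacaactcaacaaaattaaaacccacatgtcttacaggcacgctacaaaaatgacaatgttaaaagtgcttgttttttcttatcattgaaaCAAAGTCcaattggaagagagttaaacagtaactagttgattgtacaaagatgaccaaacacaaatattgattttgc
Cyp2c40: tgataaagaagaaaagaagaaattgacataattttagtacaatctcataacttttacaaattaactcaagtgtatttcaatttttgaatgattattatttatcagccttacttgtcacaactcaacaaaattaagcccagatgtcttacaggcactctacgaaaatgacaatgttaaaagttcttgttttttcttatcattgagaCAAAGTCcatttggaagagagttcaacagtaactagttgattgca
Cyp2c69: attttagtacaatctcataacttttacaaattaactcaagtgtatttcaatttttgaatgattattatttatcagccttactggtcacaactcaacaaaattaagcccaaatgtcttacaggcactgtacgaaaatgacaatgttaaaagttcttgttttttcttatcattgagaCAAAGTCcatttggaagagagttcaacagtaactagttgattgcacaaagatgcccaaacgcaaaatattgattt

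Promoter windows were aligned in pairs, and identity was taken over all alignment positions, gaps included. It was 91.3% between Cyp2c68 and Cyp2c69 (232 identical bases), 77.5% between Cyp2c40 and Cyp2c69 (217) and 84.3% between Cyp2c37 and Cyp2c50 (215). The Cyp2c40 and Cyp2c69 windows are shifted against each other, with CAAAGTC nearer the start site in Cyp2c40. Their value is lowered by this shift and does not rank them as less alike than Cyp2c68 and Cyp2c69. CAAAGTC, on either strand, was in 18 of 68 promoter windows of the P450 members (26.5%) and in 3.84% of 32851 windows of all genes. Of the 17 P450 genes that held it, 9 were Cyp2c genes, and Cyp2c37 held it at 2 positions. RefSeq windows were matched for 61 of the 75 members. The hexamer AGGTCA, to which nuclear receptors such as CAR and PXR bind, was in 22.1% of P450 windows and 14.0% of all windows. Copies of AGGTCA repeated in the same direction with 1 base or 4 bases between were in 0 P450 windows and in 0.0335% and 0.0152% of all windows. The AhR core GCGTG was in 17.6% of P450 windows, against 28.2% of all, and the STAT5 motif TTCNNNGAA in 2.94% against 7.02%. All motifs were searched on both strands, and AGGTCA also counts inside its repeats. Only these exact sequences within the 250 bases were searched, so more distant or looser sites were not covered.

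P450 transcripts took 2.25% ± 0.270 of all reads in the Brap LKO and 2.53% ± 0.322 in the Brap F/F mice (SD, n = 4 each). The lowest liver was Brap LKO 4 (1.86%) and the highest Brap F/F 2 and 3 (2.82% and 2.76%), and the groups overlapped. The difference was -0.27 percentage points, and -0.0055 without Brap F/F 2 and 3. Per kilobase of exon, the most abundant member was Cyp2e1, which oxidizes ethanol and acetaminophen, at a mean of 130764 normalized counts per kilobase over the 8 livers. It was followed by Cyp2f2, the periportal naphthalene-oxidizing enzyme (22850), Cyp2d26 (15913), Cyp2c29 (12591), the male-biased testosterone hydroxylase Cyp2d9 (11764) and Cyp3a11, the main Cyp3a enzyme of mouse liver (11699). Cyp1a2, which metabolizes caffeine (9465), and Cyp2j5, an arachidonic acid epoxygenase (8008), came next.

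The make-up of the P450 reads is plotted for each liver. Cyp2e1 alone made up 37.6% ± 1.72 of P450 reads in the Brap LKO and 40.4% ± 4.13 in the Brap F/F mice. The Cyp2c subfamily made up 13.0% ± 0.679 and 14.4% ± 2.14. Cyp2c29 took 3.51% to 5.24% of P450 reads in the Brap LKO mice and 6.00% to 6.77% in the Brap F/F mice, without overlap. The Cyp4a share was 1.16% to 2.32% in the Brap LKO livers, whereas it ran from 0.608% in Brap F/F 4 to 7.51% in Brap F/F 2. The Cyp2f2 share was lowest in Brap F/F 2 and 3 (3.71% and 4.08%) and between 6.05% and 8.68% in the other 6 livers.

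**Figure D1:**
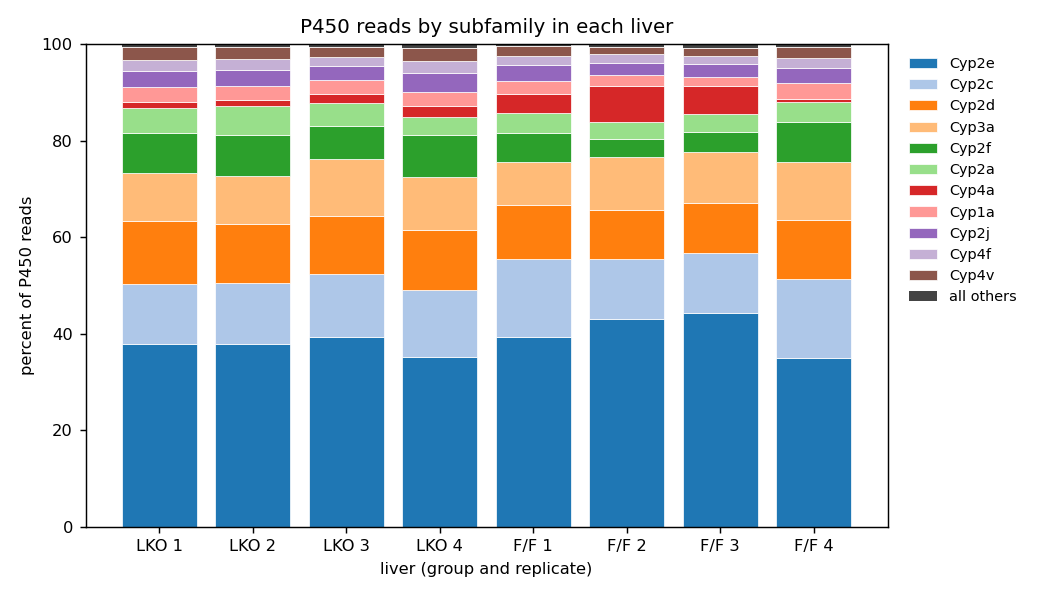
Stacked bars give the percentage of P450 reads held by each subfamily (vertical axis) in each of the 8 livers (horizontal axis, LKO for Brap LKO and F/F for Brap F/F). Cyp2e is the largest block in every liver, and the Cyp4a block is widest in Brap F/F 2 and 3 and narrowest in Brap F/F 4 (0.608%).

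To ask whether loss of Brap changed P450 expression, the groups were compared on log2(normalized count + 1) for all 15352 genes with a mean of at least 5. At a Benjamini-Hochberg adjusted p under 0.05 (limma), Cyp2c37 was the single member called, lower in Brap LKO, which is 1.52% of the 66 tested members beside 0.769% of all tested genes. No member was called higher (0 of 66), beside 0.664% of all tested genes called higher and 0.104% called lower. The limma p without adjustment was under 0.05 for 15 members (22.7%), beside 15.8% of all tested genes. Of these 6 were higher (9.23% of all tested genes) and 9 lower (6.59%). The groups did not overlap for 8 members (12.1%), beside 9.87% of all tested genes. Of these 5 were higher (5.48% of all tested genes) and 3 lower (4.39%). Cyp20a1, Cyp4f18, Cyp2d12, Cyp1b1 and Cyp2c40 were higher and Cyp2c29, Cyp2c68 and Cyp2c37 lower in Brap LKO. The median log2 fold change was -0.07 over the members, with 27 positive and 39 negative, and -0.01 over all tested genes.

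The count depended on the test. On reads recovered from the deposited values, edgeR's quasi-likelihood test also called Cyp2c37 alone, beside 0.795% of all tested genes, while DESeq2 called 3 members higher (Cyp1b1, Cyp2c40 and Cyp2d12) and 4 lower (Cyp2b9, Cyp2b10, Cyp2c29 and Cyp2c37), beside 3.7% of all genes it tested. Scaling every liver to the same total, limma called 3 members higher (Cyp1b1, Cyp2c40 and Cyp2d12) and 1 lower, beside 3.12% of all tested genes. The forest plot gives the fold change of every tested member.

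**Figure D2:**
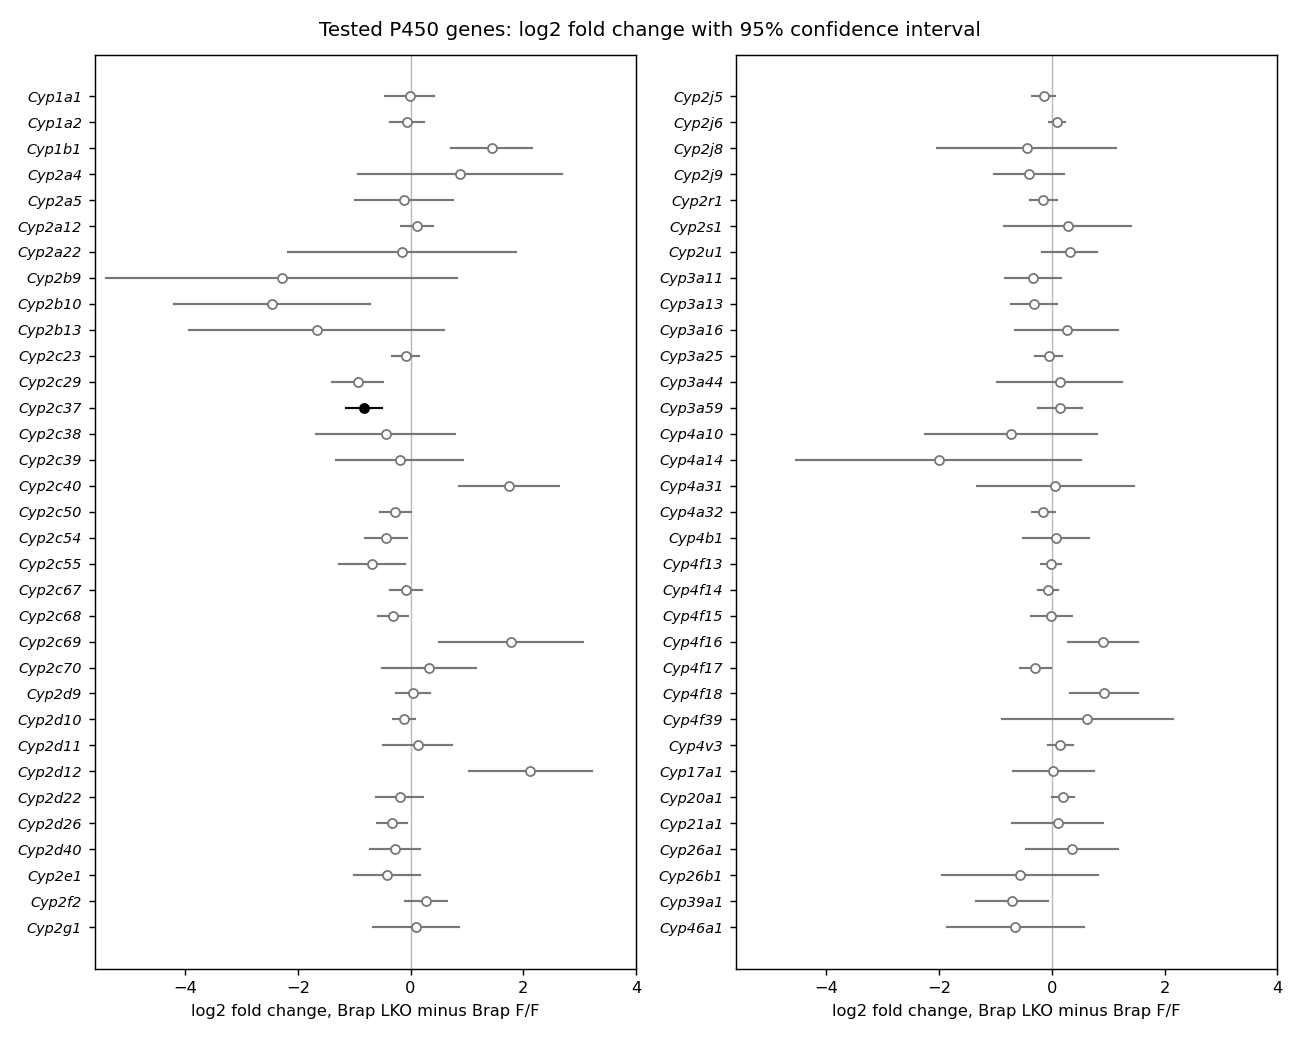
Points give the log2 fold change of each of the 66 tested members (Brap LKO minus Brap F/F, horizontal axis) and lines its 95% confidence interval from limma, with 4 livers a group. The filled point is Cyp2c37 (-0.82), the member past an adjusted p of 0.05. Intervals are widest for Cyp2b9, Cyp4a14, Cyp2b13 and Cyp2a22.

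Cyp2c37 encodes an arachidonic acid hydroxylase of pericentral hepatocytes that CAR induces, and lies at chr19:39992424-40012243 (mm10, plus strand). It was at 3560, 3081, 3592 and 2468 normalized counts in Brap LKO 1 to 4 and at 5692, 6488, 5629 and 4548 in Brap F/F 1 to 4. All Brap LKO livers were below all Brap F/F livers. Its log2 fold change was -0.82 (SE 0.142, 95% confidence interval -1.14 to -0.50, limma adjusted p = 0.0417, exact permutation p = 0.0286, two-sided and the smallest that 4 livers against 4 can give). The call was lost when any single liver other than Brap F/F 4 was left out, with adjusted p of 0.0736 to 0.103, and the log2 fold change then lay between -0.88 and -0.70. Without Brap F/F 2 and 3 it was -0.70 (adjusted p = 0.0886). Of its exon sequence read in 50-base words, 30.1% also occurs in another gene, most often Cyp2c50.

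Cyp2c29 encodes an arachidonic acid epoxygenase and is the most abundant Cyp2c transcript per kilobase. It was at 25318, 26838, 37582 and 18168 normalized counts in the Brap LKO mice and at 48085, 55418, 53580 and 43334 in the Brap F/F mice, again without overlap. The log2 fold change was -0.93 (SE 0.201, 95% confidence interval -1.39 to -0.48), with a limma adjusted p of 0.075 and an exact permutation p of 0.0286. The gene shares only 4.25% of its 50-base words with others. The adjusted p ran from 0.000964 (DESeq2) to 0.226 over the alternatives, and without Brap F/F 2 and 3 the log2 fold change was -0.81.

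The epoxygenases Cyp2c54 and Cyp2c50 and the CAR-induced Cyp2c55 had smaller differences in the same direction. Cyp2c54 was at 4683, 4620, 5805 and 3407 normalized counts in the Brap LKO mice and at 6899, 6972, 6165 and 4927 in the Brap F/F mice. Only Brap F/F 4 fell within the Brap LKO range, and the log2 fold change was -0.44 (limma adjusted p = 0.251). The values for Cyp2c50 were -0.27 (adjusted p = 0.32) and for Cyp2c55 -0.68 (adjusted p = 0.262, and -0.30 without Brap F/F 2 and 3), on the same scale and from the same limma fit.

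Against this, the female-biased Cyp2c40, an arachidonic acid hydroxylase gene, and its neighbour Cyp2c69 had positive fold changes. Cyp2c40 was at 49.2, 70.5, 53.6 and 90.5 normalized counts in the Brap LKO mice and at 35.3, 11.2, 10.5 and 26.5 in the Brap F/F mice. The groups did not overlap, and Brap F/F 2 and 3 were the lowest livers. The log2 fold change was 1.75 (SE 0.395, 95% confidence interval 0.86 to 2.64, limma adjusted p = 0.0864), and 1.04 without Brap F/F 2 and 3. Cyp2c69 was at 23.7, 27.2, 31.4 and 55.1 in the Brap LKO mice and at 28.5, 3.05, 5.26 and 10.8 in the Brap F/F mice, so that Brap F/F 1 overlapped the Brap LKO range. Its log2 fold change was 1.79 (limma adjusted p = 0.183), and 0.85 without Brap F/F 2 and 3. These genes share 60.3% (Cyp2c40) and 54.3% (Cyp2c69) of their 50-base words with other genes, each most with the other, so their separate levels are uncertain.

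The Cyp2c genes of the chromosome 19 cluster did not share a sign, as the plot in gene order shows. Cyp2c68, directly before Cyp2c40, was at 1558 to 1694 normalized counts in the Brap LKO mice and 1700 to 2595 in the Brap F/F mice, without overlap. Its log2 fold change was -0.31 (limma adjusted p = 0.257, and -0.48 without Brap F/F 2 and 3), in contrast to 1.75 for Cyp2c40 next to it, and 43.3% of its 50-base words occur in other genes. Of the 13 tested Cyp2c members, 3 had a positive and 10 a negative log2 fold change, with a median of -0.27. The third positive value was that of Cyp2c70, which makes muricholic acids in mouse liver (0.33, adjusted p = 0.687). Leaving out Brap F/F 2 and 3 put Cyp2c70 at -0.35, Cyp2c38 at 0.59 (from -0.44) and Cyp2c39 at 0.74 (from -0.20). Cyp2c23, an epoxygenase gene outside the cluster at chr19:44005022-44029208, was at -0.09 (adjusted p = 0.702).

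**Figure D3:**
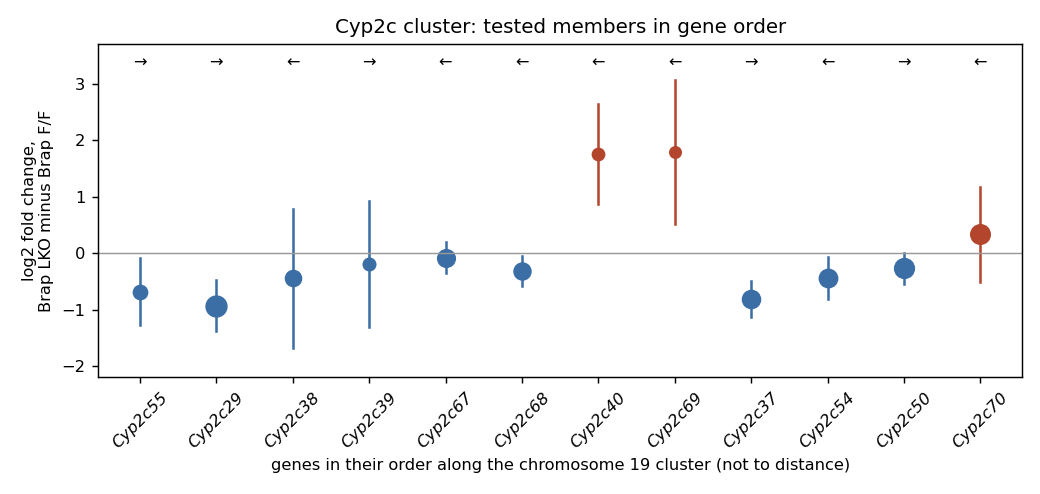
Points give the log2 fold change (vertical axis, Brap LKO minus Brap F/F) of the tested Cyp2c genes of the chromosome 19 cluster in gene order, with 95% confidence intervals from limma. Larger points have a higher mean normalized count, arrows give the strand, and red marks positive values. Cyp2c40 (1.75) and Cyp2c69 (1.79) stand between Cyp2c68 (-0.31) and Cyp2c37 (-0.82).

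In the Cyp2d and Cyp1 subfamilies, low-abundance members had the largest differences. Cyp2d12 was at 115, 77.3, 58.7 and 130 normalized counts in the Brap LKO mice and at 37.6, 11.2, 9.46 and 39.2 in the Brap F/F mice. The groups did not overlap, and Brap F/F 2 and 3 were lowest. The log2 fold change was 2.12 (SE 0.485, 95% confidence interval 1.03 to 3.21, limma adjusted p = 0.0876), and 1.22 without Brap F/F 2 and 3 (adjusted p = 0.106). The abundant members of the subfamily varied less: Cyp2d9 was at a log2 fold change of 0.05 (limma adjusted p = 0.885). Cyp2d26 was at 21094 to 27951 normalized counts in the Brap LKO and 27693 to 34763 in the Brap F/F mice, a log2 fold change of -0.33 (limma adjusted p = 0.24, and -0.20 without Brap F/F 2 and 3). Of the 7 tested Cyp2d members, 3 had positive and 4 negative fold changes. By limma 0 were called and 2 had an unadjusted p under 0.05, beside 15.8% of all tested genes. DESeq2 called Cyp2d12 and edgeR called no Cyp2d member.

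Cyp1b1, an AhR target that is expressed mainly outside hepatocytes, was at 40.1, 69.7, 74.9 and 102 normalized counts in the Brap LKO livers. In the Brap F/F mice it was at 16.0, 32.5, 31.5 and 21.6, below all Brap LKO livers. The log2 fold change was 1.44 (SE 0.319, 95% confidence interval 0.72 to 2.16, limma adjusted p = 0.0819), and 1.82 without Brap F/F 2 and 3. The hepatocyte AhR targets were near 0. Cyp1a2 was at a log2 fold change of -0.07 (adjusted p = 0.835), and Cyp1a1 of -0.01 (adjusted p = 0.977), both from limma.

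Cyp4f18, the leukotriene B4 hydroxylase of myeloid cells, was at 27.3, 18.7, 23.3 and 36.4 normalized counts in the Brap LKO and 11.4, 10.2, 16.8 and 14.7 in the Brap F/F mice. All Brap LKO livers were above all Brap F/F livers, with a log2 fold change of 0.93 (limma adjusted p = 0.151). Cyp4f16 was at 45.5 to 98.8 normalized counts in the Brap LKO and 24.2 to 48.1 in the Brap F/F mice, overlapping at Brap F/F 4 (log2 fold change 0.91, adjusted p = 0.166). The abundant hepatic Cyp4f14 was at a log2 fold change of -0.07 (limma adjusted p = 0.689).

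Markers of other liver cells were also higher in many Brap LKO livers. Of 10 stellate cell and fibroblast markers 9 had positive fold changes, with a median of 0.71 and Pdgfrb called (limma), and summed to 7734 to 12223 normalized counts in the Brap LKO against 5091 to 8798 in the Brap F/F mice. The 9 cholangiocyte markers were all positive, with a median of 0.96 and Cldn4 and Cftr called, and summed to 1931 to 3808 against 1138 to 2132. Of 10 macrophage and monocyte markers 9 were positive and 0 were called by limma, with 2 at an unadjusted p under 0.05, and the sums were 5004 to 9292 against 5338 to 7325. Without Brap F/F 2 and 3, limma still called Cftr (adjusted p = 0.0402) but not Cldn4 (0.0742) or Pdgfrb (0.105). Over all tested genes, limma called 0.664% higher, and 9.23% were higher at an unadjusted p under 0.05. No marker of these lists was at 0 in all livers. The part of these markers in the Cyp1b1, Cyp4f16 and Cyp4f18 results was not tested.

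**Figure D4:**
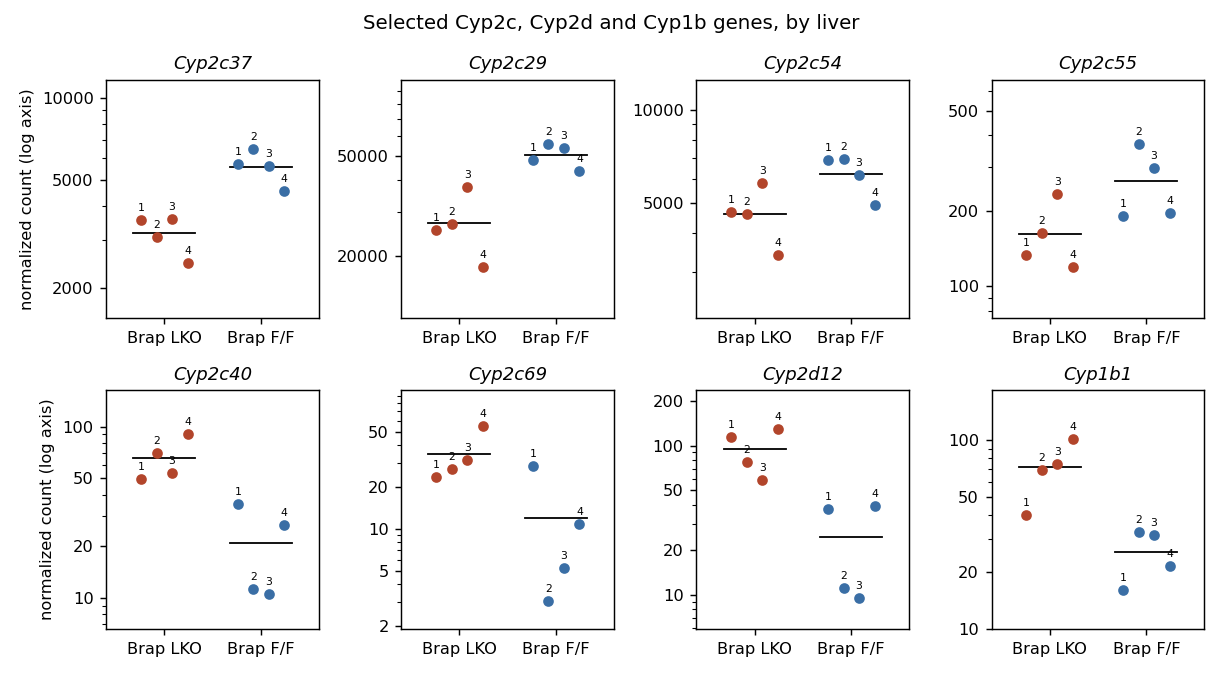
Normalized counts (vertical axes, log scale) of 8 P450 genes in each liver, with the replicate number above each point and a line at the group mean (n = 4). Cyp2c37 and Cyp2c29 are lower, and Cyp2c40, Cyp2d12 and Cyp1b1 higher, in every Brap LKO liver than in every Brap F/F liver, and the other 3 genes overlap.

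The Cyp2b genes varied widely among control livers. Cyp2b10, the standard CAR target, was at 72.0, 63.7, 165 and 32.2 normalized counts in the Brap LKO mice and at 222, 1483, 657 and 108 in the Brap F/F mice. Brap F/F 4 fell within the Brap LKO range, while Brap F/F 2 was far above all others. The log2 fold change was -2.46 (SE 0.771, 95% confidence interval -4.19 to -0.73, limma adjusted p = 0.18), and -1.13 without Brap F/F 2 and 3. Cyp2b9, a female-biased steroid hydroxylase gene, was at 28.1 to 57.4 in the Brap LKO mice and at 84.4, 831, 2406 and 10.8 in the Brap F/F mice. The highest Brap F/F liver was 223 times the lowest. Its log2 fold change of -2.29 (limma adjusted p = 0.449) became 0.45 without Brap F/F 2 and 3. The low-count Cyp2b13 was at a log2 fold change of -1.67 (adjusted p = 0.447).

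The Cyp4a genes encode fatty acid hydroxylases that PPARA induces in fasting, and Cyp4a14 and Cyp4a10 were also highest in Brap F/F 2 and 3. Cyp4a14 was at 1323, 2007, 3462 and 3965 normalized counts in the Brap LKO mice and at 9235, 45700, 31815 and 707 in the Brap F/F mice. Brap F/F 1 to 3 lay above and Brap F/F 4 below every Brap LKO liver. The log2 fold change was -2.01 (limma adjusted p = 0.415), -3.27 without Brap F/F 4 (adjusted p = 0.0347, in a fit that called 1.51% of all genes) and -0.06 without Brap F/F 2 and 3. Cyp4a10 was at 4977, 5755, 9884 and 6146 in the Brap LKO mice and at 16491, 22299, 17690 and 1951 in the Brap F/F mice, with Brap F/F 4 again below and the others above. Its log2 fold change of -0.72 (limma adjusted p = 0.629) was -1.53 without Brap F/F 4 (adjusted p = 0.0207) and 0.19 without Brap F/F 2 and 3. Cyp4a31 was highest in Brap F/F 1 and lowest in Brap F/F 3 (1028 and 140 normalized counts, log2 fold change 0.06, limma adjusted p = 0.97, and -0.66 without Brap F/F 2 and 3). Cyp4a32 was at 878 to 1151 in all livers (-0.15, adjusted p = 0.443).

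Other PPARA targets outside the family were compared with Cyp4a. Of 14 genes, 13 had negative fold changes, with a median log2 fold change of -0.33. The median was -0.10 without Brap F/F 2 and 3, with 10 negative and 4 positive, and -0.57 without Brap F/F 4. None was called (0 by limma, edgeR or DESeq2, 2 at an unadjusted limma p under 0.05). The gene with the smallest p was Angptl4, an inhibitor of lipoprotein lipase, at 4648 to 6229 normalized counts in the Brap LKO and 6574 to 8067 in the Brap F/F mice, without overlap (log2 fold change -0.34, limma adjusted p = 0.181). Without Brap F/F 4, limma called 4 of these genes lower (Acadm, Acot1, Acot2 and Vnn1), in a fit that called 1.51% of all genes. With all livers, 15.8% of all tested genes had an unadjusted limma p under 0.05. Ppara itself was at a log2 fold change of -0.03 (adjusted p = 0.921).

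**Figure D5:**
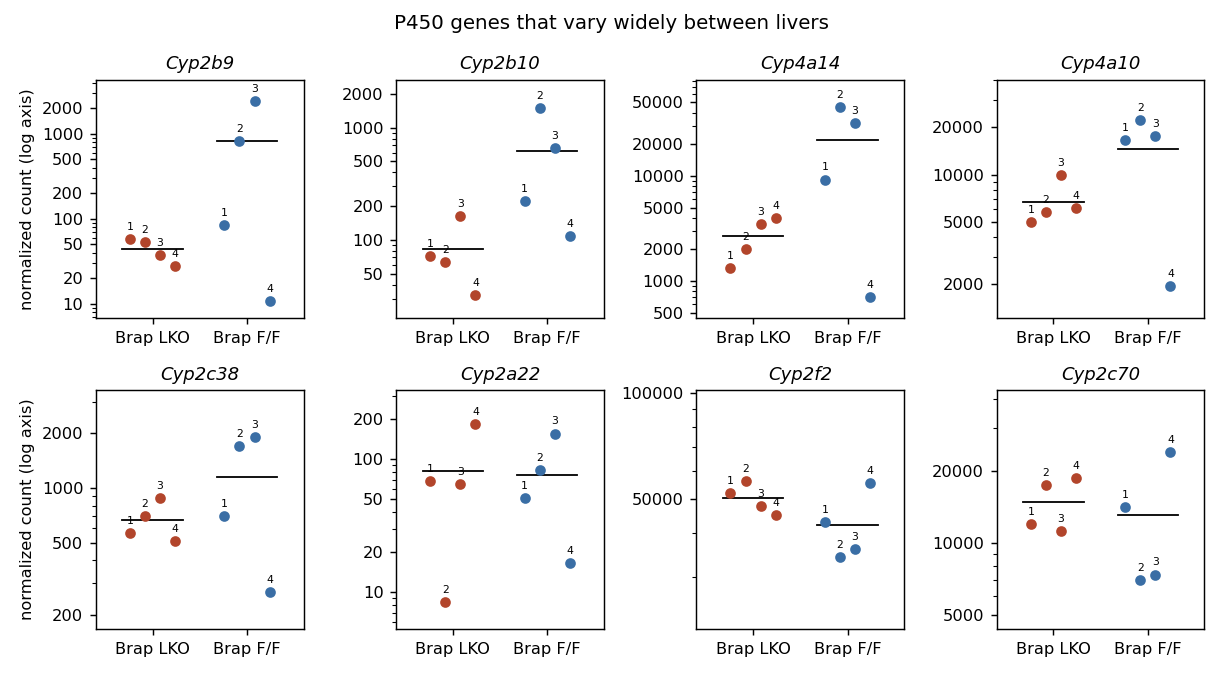
Normalized counts (vertical axes, log scale) of 8 P450 genes in each liver, with replicate numbers and a line at the group mean (n = 4). In Cyp2b9, Cyp4a14, Cyp4a10 and Cyp2c38, Brap F/F 2 and 3 are highest and Brap F/F 4 is lowest of all livers, whereas Cyp2f2 and Cyp2c70 are lowest in Brap F/F 2 and 3.

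Over the tested members, Brap F/F 2 and 3 were both above Brap F/F 1 and 4 for 29 genes (43.9%), beside 28.0% of all tested genes. They were both below for 18 (27.3%), beside 27.6% of all tested genes. Without these livers, limma called Cyp2d40 lower in Brap LKO and no longer Cyp2c37, beside 1.13% of all genes tested. Cyp2d40 was at 1296 to 1407 normalized counts in the Brap LKO mice and at 2296, 1216, 1234 and 2034 in the Brap F/F mice. Brap F/F 1 and 4 lay above and Brap F/F 2 and 3 below the Brap LKO range.

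Of the 4 Cyp2a genes, all but Cyp2a12 (13470 to 19026 normalized counts in Brap LKO and 13242 to 16313 in Brap F/F) were spread widely within groups. Cyp2a5, the coumarin hydroxylase gene, was at 16829, 20839, 18774 and 5888 normalized counts in the Brap LKO livers, with Brap LKO 4 lowest, and at 10407 to 20580 in the Brap F/F mice (log2 fold change -0.12, limma adjusted p = 0.902). The female-biased steroid hydroxylase gene Cyp2a4 was at 24.3 to 148 normalized counts in the Brap LKO and 6.84 to 90.4 in the Brap F/F mice (log2 fold change 0.87, adjusted p = 0.619). Cyp2a22 ranged from 8.50 to 182 in the Brap LKO livers, a ratio of 21.4, and from 16.7 to 156 in the Brap F/F mice (log2 fold change -0.15, adjusted p = 0.948). Without Brap F/F 2 and 3 the log2 fold changes were 0.25 for Cyp2a5, 2.26 for Cyp2a4 and 0.80 for Cyp2a22. The shared 50-base words were 38.8% for Cyp2a4 and 37.0% for Cyp2a5.

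Cyp2e1, Cyp3a11, Cyp2f2 and Cyp2j5 overlapped between groups, unlike Cyp2c29. Cyp2e1 was at 240861, 253327, 282112 and 182343 normalized counts in the Brap LKO mice and at 278908, 396511, 391143 and 232304 in the Brap F/F mice. Brap F/F 2 and 3 were the highest, and the log2 fold change of -0.42 (95% confidence interval -1.0 to 0.16, limma adjusted p = 0.457) was -0.10 without them. Cyp3a11 was at 41517 to 68474 in the Brap LKO and 44984 to 84360 in the Brap F/F mice (log2 fold change -0.33, adjusted p = 0.494, and -0.02 without Brap F/F 2 and 3). Cyp2f2 was at 44961 to 56364 and 34273 to 55577 (0.27, 95% confidence interval -0.09 to 0.64, adjusted p = 0.444, and 0.04 without them). Cyp2j5 was at 17383 to 18698 and 17253 to 22195 (-0.14, 95% confidence interval -0.35 to 0.06, adjusted p = 0.474, and -0.05 without them).

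Of the retinoic acid hydroxylases, Cyp26a1 was at a log2 fold change of 0.35 and Cyp26b1 of -0.56 (limma adjusted p = 0.653 and 0.679). Cyp39a1, an oxysterol hydroxylase gene, was at 252 to 420 normalized counts in the Brap LKO and 315 to 886 in the Brap F/F mice (-0.70, adjusted p = 0.282). Cyp46a1, the cholesterol hydroxylase known from brain, was at 63.4 to 199 and 64.8 to 349 (-0.64, adjusted p = 0.587). Leaving out Brap F/F 2 and 3, the log2 fold changes were 0.65 (Cyp26a1), 0.34 (Cyp26b1), -0.27 (Cyp39a1) and 0.25 (Cyp46a1). The vitamin D hydroxylase gene Cyp2r1 was at -0.15 (adjusted p = 0.523) and the steroid hydroxylase gene Cyp17a1 at 0.03 (adjusted p = 0.974), as log2 fold changes. The orphan P450 Cyp20a1 was at 330 to 367 and 268 to 322 normalized counts, without overlap, a log2 fold change of 0.20 (limma adjusted p = 0.317).

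By inducing receptor, the 6 CAR-responsive members (Cyp2b10, Cyp2c29, Cyp2c37, Cyp2c50, Cyp2c54 and Cyp2c55) all had negative fold changes. Their median was -0.75, against -0.01 over all tested genes, with 1 called lower (0.104% of all tested genes) and 5 lower at an unadjusted limma p under 0.05 (6.59% of all tested genes). The median was -0.53 without Brap F/F 2 and 3. The summed counts were 37564 to 65232 in the Brap LKO and 68191 to 90216 in the Brap F/F mice, of which Cyp2c29 was the largest part. The 3 PXR-responsive members, sharing Cyp2b10 with the CAR list, were also all negative, at -0.33 (Cyp3a11, the median), -0.31 (Cyp3a13) and -2.46 (Cyp2b10). Of these 0 were called by limma, 1 by DESeq2 (3.7% of all genes it tested) and 1 was lower at an unadjusted limma p under 0.05. Without Brap F/F 2 and 3 the values were -0.02 (Cyp3a11), -0.64 (Cyp3a13, then the median) and -1.13 (Cyp2b10). Cyp3a11 and Cyp2b10 thus shrank, and only Cyp3a13 grew in size. These lists were chosen with earlier results of these data known.

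By position in the lobule, all 8 pericentral P450 members had negative fold changes, with a median of -0.38. By limma 1 was called lower (Cyp2c37), beside 0.104% of all tested genes. At an unadjusted limma p under 0.05, 3 were lower (6.59% of all tested genes). The groups did not overlap for 2, both lower (4.39% of all tested genes). The list overlaps those by receptor: Cyp2c29, Cyp2c37, Cyp2c50 and Cyp2c54 are also CAR-responsive and Cyp3a11 is PXR-responsive. The other pericentral members were Cyp1a2, Cyp2a5 and Cyp2e1. The median of the 8 was -0.19 without Brap F/F 2 and 3, with 7 negative and 1 positive, and -0.26 without Brap LKO 4, with 6 negative and 2 positive. Scaling every liver to the same total, or quantile normalization, left 6 negative and 2 positive (Cyp1a2 and Cyp2a5). Of 11 other genes of the pericentral zone 8 were positive, with a median of 0.29, and 1 was called higher (0.664% of all tested genes). At an unadjusted limma p under 0.05, 6 were higher (9.23% of all tested genes) and 3 lower (6.59%). The negative genes included Rgn (log2 fold change -0.32, limma adjusted p = 0.298) and Lect2 (-0.30, adjusted p = 0.302), whose groups overlapped. Rhbg, an ammonium transporter, was at 165 to 205 normalized counts in the Brap LKO and 79.3 to 120 in the Brap F/F mice and rose (log2 fold change 0.94, limma adjusted p = 0.0313). Rhbg was at 0.83 without Brap F/F 2 and 3, and no longer called (limma adjusted p = 0.0702). Axin2, a Wnt target, was at a log2 fold change of 0.50 (adjusted p = 0.0628) and glutamine synthetase (Glul) of 0.29 (adjusted p = 0.273). Of 10 periportal genes outside the family, 6 were negative and 4 positive, with a median of -0.22 and 0 called by limma. At an unadjusted limma p under 0.05, 2 of them were higher and 0 lower. The median of these periportal genes was 0.08 without Brap F/F 2 and 3, with 5 negative and 5 positive.

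By sex bias, the 4 male-biased genes (Cyp2d9 and Cyp2u1 of the members, with Cyp4a12a and Cyp4a12b) were all positive, with a median of 0.42 and 0 called by limma (1 at an unadjusted p under 0.05). Cyp2u1 was at -0.02 without Brap F/F 2 and 3, and Cyp4a12b was then called higher (0.81, limma adjusted p = 0.0412). The 10 female-biased members were split, with 6 positive and 4 negative, a median of 0.08 and 0 called by limma (4 at an unadjusted p under 0.05, and 3 called by DESeq2). The median of the 9 that could be tested without Brap F/F 2 and 3 was 0.45. Within that list, Cyp2c40 and Cyp2c69 were lowest and Cyp2b9 highest in Brap F/F 2 and 3, so the listed genes did not share an order of livers. Over all genes, 15.8% had an unadjusted limma p under 0.05 and DESeq2 called 3.7%. Without Brap F/F 2 and 3, limma called 1.13%.

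The partners of the enzymes were compared too. Of 7 electron donors, 6 had negative fold changes (median -0.25, and -0.10 without Brap F/F 2 and 3) and 0 were called by limma, edgeR or DESeq2, with 1 at an unadjusted limma p under 0.05. That was Cyb5a, cytochrome b5, at 18640 to 21923 normalized counts in the Brap LKO and 22052 to 26969 in the Brap F/F mice, without overlap (log2 fold change -0.25, limma adjusted p = 0.279). P450 oxidoreductase (Por) was at 22239 to 35952 and 25284 to 42768 (-0.36, adjusted p = 0.39, and -0.15 without Brap F/F 2 and 3). Of 11 genes of heme synthesis and breakdown 9 were negative (median -0.10, and -0.16 without Brap F/F 2 and 3, with 7 negative) and 0 were called by the same 3 tools, with 2 at an unadjusted limma p under 0.05. With every liver scaled to the same total, 4 of these heme genes were negative and 7 positive (median 0.05, against 0.15 over all genes). The smallest p was that of Alad, the porphobilinogen synthase gene, at 2674 to 3163 and 3226 to 3689 (-0.25, adjusted p = 0.166). Of all tested genes, 15.8% had an unadjusted limma p under 0.05.

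Of 27 transcription factors and receptors that regulate P450 genes, 17 had negative fold changes (median -0.06, and 0.0026 with 13 negative without Brap F/F 2 and 3) and 0 were called by limma, edgeR or DESeq2. With every liver scaled to the same total, 8 were negative and 19 positive (median 0.10, against 0.15 over all genes). Quantile normalization gave 11 negative and 16 positive. The gene at an unadjusted limma p under 0.05 was Nr1i2, which encodes PXR, at 3037 to 3440 normalized counts in the Brap LKO and 3289 to 5319 in the Brap F/F mice (log2 fold change -0.39, adjusted p = 0.25, and -0.11 without Brap F/F 2 and 3). Brap F/F 4 lay within the Brap LKO range and Brap F/F 2 and 3 were highest. Nr1i3, which encodes CAR, was at 11231 to 14353 and 12939 to 18068 (-0.22, adjusted p = 0.454). Hnf4a was at a log2 fold change of 0.05 (adjusted p = 0.875) and Ahr of -0.26 (adjusted p = 0.474). An unadjusted limma p under 0.05 was reached by 15.8% of all tested genes.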

How the data were processed

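RNA sequencing of 8 livers was analysed (4 Brap LKO, 4 Brap F/F, grouped by the labels). Per the labels and the study's methods, RNA was isolated with TRIzol and columns, sequenced as single-end 50 base reads, checked with FastQC and aligned to mm10 with STAR 2.6.0c. The counting tool, its annotation and its use of strand are not given in the sources used here, and 14 members overlap exons of another gene. The deposited signal is the reads counted per gene divided by the authors' DESeq2 size factor for each liver. Divided by the value of a single read, all of them (100%) came out whole within 0.01, so reads were recovered. A second deposited table, the authors' DESeq2 comparison with fold changes and p-values, was not used. No per-sample column was left out (0).

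limma 3.58.1 (trend) in R 4.3.3 was run on log2(normalized count + 1), a scale that understates changes of low genes, with a filter (mean at least 5 over 8 livers) and a threshold of adjusted p 0.05. It called 118 of 15352 genes, edgeR 4.0.16 (quasi-likelihood, recovered reads) 122, and DESeq2 1.42.0 607 of 16387. Single genes also had two-sided exact permutation tests over 70 arrangements. The limma step was tested on simulated data that lacked the split seen among the Brap F/F livers. The other steps were not tested on simulated data. Intervals rest on the spread between livers, which the labels give different animal numbers. Reads were not tagged by molecule, and a count of 0 allows up to 3 reads, for counting error only.

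Positions, exon lengths and shared 50-base words came from GENCODE of the same build, which held all 75 members, and symbols from the authors' table. Named members were those past the threshold, the 6 smallest p in each direction, the most abundant member per kilobase of each subfamily with at least 2 tested members, the 8 most abundant, and the 5 of largest ratio within a group; of partner lists, the gene with the smallest p. Other genes given with values were chosen after their values were seen. The members and lists were chosen with earlier results of these data known. Alternatives were the pseudocount, filter, scaling, variance model, replicate block, animal number series, each liver left out, and the count tests; leaving out Brap F/F 2 and 3, and the CAAAGTC motif, were added after seeing the data. Python 3.11.15 with pandas 2.3.3, scipy 1.17.1, biopython 1.88 and matplotlib 3.10.9 was used.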

Additional observations from a re-analysis of the deposited data

Results flagged for a closer look

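Within the groups of 4 livers, 52 sets of values for named genes and P450 shares were examined for a liver far from the others by Dixon's criterion, and 2 were found, where 2.6 are expected at 1 in 20. Both were Brap LKO 4. Cyp2a4 was at 147.7 normalized counts in that liver and between 24.3 and 43.7 in the other 3 Brap LKO livers. Cyp1a2 was at 15063 normalized counts in that liver and between 19589 and 20002 in the other 3.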

How the results depend on the processing

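The 25 named P450 genes gave 524 values under the alternatives. Of these 474 kept direction and side of the threshold, 15 passed it only there, 10 lost it (all for Cyp2c37) and 25 changed sign, none of them for Cyp2c37. Cyp2c37 was past the threshold in 11 of 21 alternatives, with a log2 fold change from -0.95 to -0.66 and an adjusted p from 3.35e-05 to 0.103 (limma, edgeR or DESeq2).

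Members higher in Brap LKO numbered 0, against 3 with the same total per liver, 1 with the animal number series as a covariate (Cyp1b1), 3 at an adjusted p under 0.1, 3 by DESeq2 and 0 to 1 when each liver was left out (Cyp2d12, without Brap F/F 4). Members lower numbered 1, against 0 with quantile normalization, 0 without the mean-variance trend, 2 at an adjusted p under 0.1, 4 by DESeq2 and 0 to 3 when each liver was left out. The 3 (Cyp2c37, Cyp4a10 and Cyp4a14) came without Brap F/F 4, and every other left-out liver gave 0. Partner and regulator genes lower numbered 0, against 1 with the animal series (Fdx1) and 0 to 4 when each liver was left out (4 without Brap F/F 4). The cause was not tested. For the animal series and the threshold of 0.1, the share of all tested genes called was not counted. The P450 share of reads differed by -0.27 percentage points, and by -0.40 to -0.14 with each liver left out. The same total per liver moved the median log2 fold change of all tested genes from -0.01 to 0.15, and called 479 genes against 118. Leaving out Brap F/F 4 gave 232.

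Same-numbered livers of the groups correlated at -0.13, 0.0034, 0.20 and 0.29 after the group mean of each gene was removed. Differently numbered livers were not compared, so these values do not decide whether the replicate numbers pair the livers. With the replicate number as a block, 1 member was higher (Cyp2d12) and 2 were lower (Cyp2c29 and Cyp2c37). The share of all tested genes called with this block was not counted, so these counts have no background.

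Log2 fold changes that changed sign were, with quantile normalization, Cyp2j5 0.0035, Cyp2a5 0.035, Cyp1a2 0.095 and Cyp4f14 0.042, and with the same total per liver Cyp2j5 0.014, Cyp2a5 0.039, Cyp2a22 0.0015, Cyp1a2 0.091 and Cyp4f14 0.091. With the animal series Cyp2a22 was at 0.50 and Cyp2d9 at -0.019. Cyp2a22 was at 0.087 by edgeR and 0.080 by DESeq2. Without Brap F/F 2 and 3, Cyp4a10 was at 0.19, Cyp2b9 at 0.45, Cyp2a5 at 0.25 and Cyp2a22 at 0.80. With each liver left out, Cyp2a5 ran from -0.31 to 0.30, Cyp2a22 from -0.75 to 0.68, Cyp1a2 from -0.17 to 0.031 and Cyp2d9 from -0.038 to 0.16.

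Depth limits the 9 untested members and the genes under about 100 normalized counts, such as Cyp2c69 (3 reads in Brap F/F 2). Members that share 50-base words have uncertain separate levels. With 4 livers a group, a missed threshold does not show that a gene was unchanged.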
